A study of Mus musculus with 6 samples.

Results

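The genes described here are the nuclear-encoded genes of the mitochondrial respiratory chain. They were chosen by name alone: every gene of the deposited tables whose symbol starts with Nduf, Uqcr, Atp5, Cox4, Cox5, Cox6, Cox7 or Cox8, together with Sdha, Sdhb, Sdhc and Sdhd. The rule gave 80 of 19465 genes. By their known roles, 7 encode core subunits of complex I, 27 encode its supernumerary subunits and 6 its assembly factors, 4 encode complex II, 7 complex III, 8 complex IV and 13 ATP synthase, and 8 encode isoforms restricted to certain tissues. Some subunit genes that fit the rule were absent from the deposited tables, among them Cox4i1, Cox5a, Cox6b1, Ndufa4, Uqcrq and Atp5g2. Sums given for a complex therefore cover only the genes present, and Cox4i2, Cox6b2 and Ndufa4l2 have no widely expressed partner here. Of the 80 genes, 75 were detected widely enough to be tested for a difference between ages, and the other 5 (Cox4i2, Cox6b2, Cox7b2, Cox8b and Cox8c, all tissue-restricted isoforms) are given by their levels.

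The respiratory chain sits in the inner mitochondrial membrane. Complex I takes electrons from NADH and complex II from succinate, complex III passes them by way of ubiquinone and cytochrome c to complex IV, which reduces oxygen, and ATP synthase makes ATP from the proton gradient that complexes I, III and IV build up. A few subunits are encoded by the mitochondrial genome and all others by nuclear genes. Complexes I, III and IV and ATP synthase are put together from the products of both genomes, and complex II from nuclear genes alone. Neurons, with their cost of keeping ion gradients, depend on the chain heavily.

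Coronal brain sections of untreated male wild-type C57BL/6J mice, fixed in formalin and embedded in paraffin (FFPE), were hybridized with a mouse probe panel and read out by Visium, which counts probe molecules (unique molecular identifiers, UMIs) in barcoded spots laid over the tissue. There were 6 sections, 2 each from mice at postnatal day 21 (P21), from adult mice of 12–15 weeks and from aged mice of 28 months, which the labels give as biological replicates. P21 mice were bred in house from purchased parents, adult mice were purchased at 12 weeks from a commercial supplier and aged mice came from a colony of the National Institute on Aging. The source of the mice thus differed between ages in both comparisons and cannot be told apart from age. P21 and adult sections lay directly on Visium slides. Aged sections were transferred to slides of the next version with CytAssist and counted with a later release of Space Ranger. The study also describes an enhanced probe design for the aged libraries. In aged vs. adult the effect of age and the effect of the platform, probe design included, therefore cannot be told apart.

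The sections held 42422997 to 106783660 UMIs, and the median spot held 12074.5 to 25535 UMIs. A spot covers several cells, so fewer cells of a type and less RNA per cell cannot be told apart. Spots were grouped by their expression and named from marker genes as cortex (CTX, 6581 spots), hippocampus (HP, 1921), thalamus (TH, 3315), hypothalamus (HY, 3500), striatum (STR, 1135), fiber tracts (FT, 2109), ventricular system (VS, 234), reticular thalamus (RT, 279) and meningeal or vascular spots (MEN, 1048). The 80 genes were kept out of that grouping. VS held only 13 to 70 spots and RT only 41 to 56 spots in a section. The FT grouping joined a cluster led by C4b, Klk6 and Apod, with a cluster led by Opalin, Mag and Mobp. The first of them held 344 of 430 and 313 of 375 FT spots in aged sections, 134 of 323 and 194 of 386 in adult sections and 168 of 289 and 148 of 306 at P21, so aged and adult FT are different mixes of the clusters. Levels are given as counts scaled to a common number of UMIs (CPM) after TMM scaling. Probes differ in how well they hybridize, so the level of a gene was compared between sections and zones. In aged vs. adult the probe design may differ as well, so a gene's difference there can rest on its probes. Where an isoform is given as a percentage of its partner, the value depends on both probe sets, is no proportion of the isoforms, and is set only against the same percentage in other sections and zones.

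Promoter sequences were read for the genes whose levels are followed most closely below, to place 4 DNA motifs known from respiratory genes. RefSeq start sites on GRCm38.p6 were matched for 63 of the 80 genes. Among those not matched were Atp5f1, Cox6a2, Ndufa4l2, Sdhc and Uqcrc2. In windows of 300 bases, 250 of them upstream of the start, the NRF1 motif CGCATGCG stood in 9 of the 63 genes, 14.3%, against 2.07% of all 27025 genes. The ETS motif CCGGAAG stood in 16 genes, 25.4% against 9.93%, the YY1 motif AAGATGGCG in 6 genes, 9.52% against 1.64%, and the ERR motif TCAAGGTCA in 2 genes, 3.17% against 0.466%. Both strands were searched, no letter of a motif was free, and a match describes the letters only. The 250 upstream bases of 6 genes follow, from 5′ to 3′ on the strand of the gene, with motif letters in capitals.
Cox6a1, chr5:115348959-115349208, minus strand: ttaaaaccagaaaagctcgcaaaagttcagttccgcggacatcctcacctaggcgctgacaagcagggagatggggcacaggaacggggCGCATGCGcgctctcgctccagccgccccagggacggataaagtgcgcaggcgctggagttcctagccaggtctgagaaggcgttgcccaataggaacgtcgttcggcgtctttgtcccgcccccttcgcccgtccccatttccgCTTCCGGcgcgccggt
Cox8a, chr19:7217617-7217866, minus strand: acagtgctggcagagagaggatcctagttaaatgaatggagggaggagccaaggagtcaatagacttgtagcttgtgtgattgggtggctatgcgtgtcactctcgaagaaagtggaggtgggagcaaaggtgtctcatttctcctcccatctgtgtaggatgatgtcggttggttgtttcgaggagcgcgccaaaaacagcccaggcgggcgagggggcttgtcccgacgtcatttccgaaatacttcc
Cox8b, chr7:140900447-140900696, minus strand: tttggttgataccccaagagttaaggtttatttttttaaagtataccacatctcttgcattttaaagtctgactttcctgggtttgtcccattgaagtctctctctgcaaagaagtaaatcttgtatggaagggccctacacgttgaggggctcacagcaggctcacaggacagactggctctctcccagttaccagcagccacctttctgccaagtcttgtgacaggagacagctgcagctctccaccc
Ndufa11, chr17:56717512-56717761, plus strand: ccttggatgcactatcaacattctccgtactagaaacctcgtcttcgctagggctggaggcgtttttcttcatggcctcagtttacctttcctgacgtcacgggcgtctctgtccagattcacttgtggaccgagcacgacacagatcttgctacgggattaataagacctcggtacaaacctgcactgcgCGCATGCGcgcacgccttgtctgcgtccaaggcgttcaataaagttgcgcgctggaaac
Ndufs5, chr4:123718187-123718436, minus strand: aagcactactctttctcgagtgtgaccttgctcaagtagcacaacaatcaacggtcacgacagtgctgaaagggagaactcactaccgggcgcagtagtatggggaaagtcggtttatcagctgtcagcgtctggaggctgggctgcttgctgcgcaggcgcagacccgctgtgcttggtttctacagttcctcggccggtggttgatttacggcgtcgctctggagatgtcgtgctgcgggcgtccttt
Ndufaf8, chr11:120098684-120098933, plus strand: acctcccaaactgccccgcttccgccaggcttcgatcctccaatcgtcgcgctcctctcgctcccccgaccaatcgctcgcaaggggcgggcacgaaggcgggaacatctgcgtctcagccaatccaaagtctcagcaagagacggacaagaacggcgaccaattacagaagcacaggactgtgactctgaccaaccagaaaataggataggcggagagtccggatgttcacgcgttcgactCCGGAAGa
Cox6a1, the widely used form of a complex IV subunit, carried an NRF1 and an ETS match, and Ndufa11 carried an NRF1 match. Ndufaf8 carried an ETS match close to the start and a YY1 match that does not lie wholly within the bases printed. No motif was printed in capitals for Cox8a, whose ETS match does not lie wholly within the bases printed, for Cox8b, its tissue-restricted relative, or for Ndufs5.

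Together the 80 genes took up a small share of the UMIs of a section. Their share in the median spot was 1.74% and 1.69% at P21, 1.70% and 1.74% in adult sections and 1.80% and 1.82% in aged sections. From the low to the high end of a section (the 5th and the 95th percentile of spots) the share ran from 1.46% to 2.10% in P21 section 1 and from 1.38% to 2.54% in aged section 1, and the maps of single spots show the highest shares over the thalamus.

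**Figure D1:**
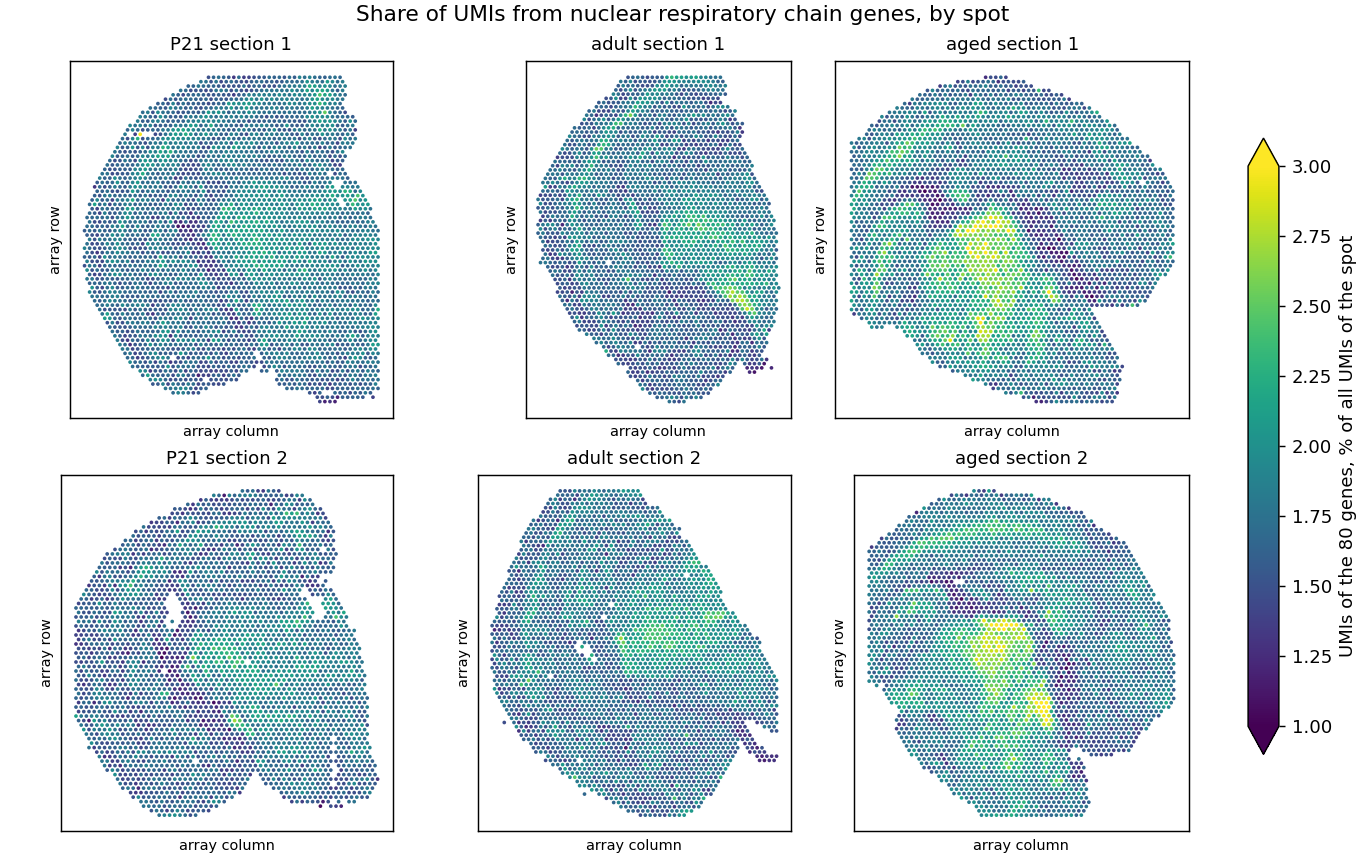
Percentage of the UMIs of each spot that came from the 80 genes, by array column and array row, in the 6 sections (columns of panels are P21, adult and aged). The colour scale runs from 1% to 3%, medians lie between 1.69% and 1.82%, and the high end (95th percentile) is 2.54% and 2.50% in the aged sections and 2.10% to 2.20% in the other 4.

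By anatomical zone, the summed level of the 80 genes was highest in RT and TH and lowest in FT and MEN. In TH it was 19518 and 19398 CPM at P21, 19602 and 20967 CPM in adult sections and 23719 and 22319 CPM in aged sections. In CTX it was 17730 and 16877 CPM at P21, 17183 and 17270 CPM in adult sections and 18487 and 18270 CPM in aged sections. TH was above CTX in all 6 sections, with a mean difference of 0.24 on the log2 scale.

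RT, a thin sheet of inhibitory neurons around the thalamus, held 20604 and 19984 CPM at P21, 20556 and 21258 CPM in adult sections and 27041 and 26251 CPM in aged sections. Both aged values stood apart from the other 4. The excess of RT over CTX was 0.22 to 0.30 on the log2 scale in P21 and adult sections and 0.55 and 0.52 in aged sections. With spots assigned by their marker score alone, the mean excess of RT was 0.13 in place of 0.35.

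FT, the myelinated tracts, ranged only from 15214 to 15793 CPM over the 6 sections and was below CTX in each, by 0.18 on the log2 scale on average. MEN ranged from 14777 to 16662 CPM and was also below CTX in each section. STR, HY and HP lay within 0.06 of CTX on the log2 scale on average, and with plain CPM the mean of STR turned to 0.00445 and that of HY from −0.05 to 0.071, with HY above CTX in all 6 sections. Inside the hippocampus, CA3 held 18438 to 22074 CPM and the dentate gyrus (DG) 14913 to 16324 CPM, ranges that did not meet. With plain CPM they did, at 16203 to 18853 CPM and 14925 to 16665 CPM. CA3 stood 0.18 above CTX on the log2 scale with TMM scaling and at 0.00216 with plain CPM, whereas DG stayed below CTX with both, at −0.19 and −0.15.

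**Figure D2:**
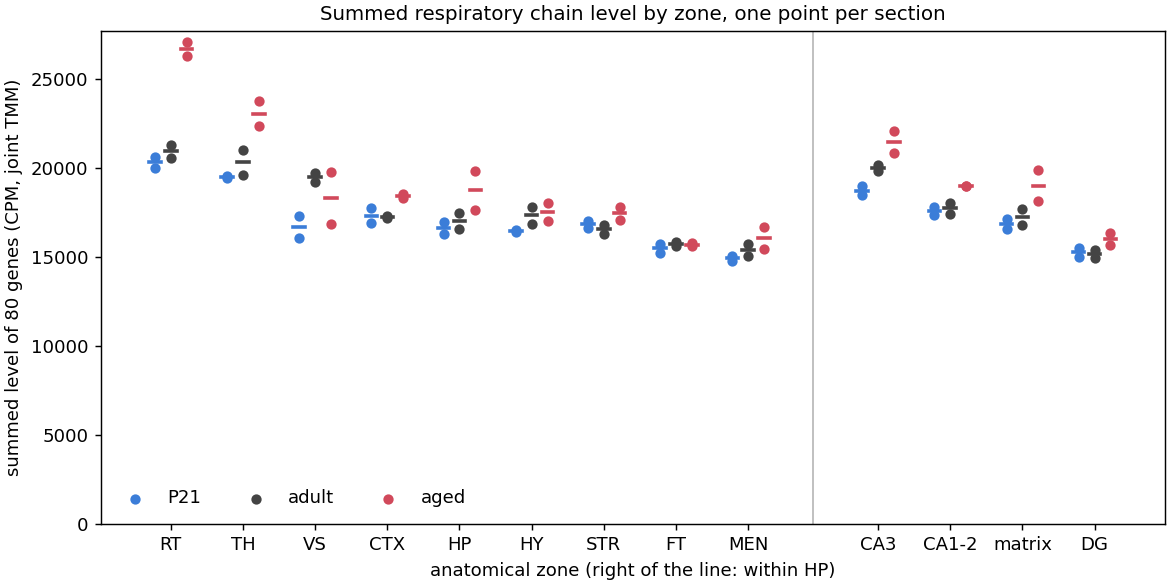
Summed level of the 80 genes in CPM (joint TMM scaling) by anatomical zone, with 1 point per section and a bar at the mean of the 2 sections of an age. RT and TH lie highest, with aged RT at 27041 and 26251 CPM, and FT, MEN and DG lie lowest.

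RT and TH were the highest of the named zones for the subunits of each complex, while the order of the lower zones varied. Complex I core subunits summed to a mean of 2148 CPM in RT, 1959 in TH, 1668 in CTX and 1432 in FT, and ATP synthase subunits to 6508, 6043, 5008 and 4138 CPM. Complex II had a mean of 1052 CPM in HY and 980 CPM in CTX. Complex IV differed in FT, where its mean of 2827 CPM was close to the 2854 CPM of CTX, and it was lowest in HY, at 2411 CPM. Inside the hippocampus complex IV was at 3368 CPM in the matrix (spots outside the CA fields and DG) and 2961 CPM in CA3. Aged FT held 3338 and 3360 CPM of complex IV against 2688 and 2664 CPM in adult FT.

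Gene by gene, TH was the highest of the 6 main regions (CTX, HP, TH, HY, STR and FT) for 59 of the 75 tested genes, and FT was the lowest for 53. How many of all genes were highest in TH or lowest in FT was not counted. The spread between the highest and the lowest region had a median of 0.47 on the log2 scale over the 75 genes and of 0.71 over all 11338 genes tested. Moran's I, the score of spatial patterning that the authors deposited for each section, had a median of 0.029 to 0.098 over the respiratory genes and of 0.018 to 0.062 over all genes tested. These are descriptions, as the regions were drawn from the same spots.

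Ndufa10, a supernumerary subunit of complex I, had the widest regional spread among the widely expressed genes, at 2.28-fold between TH and FT. In TH it was at 358 and 417 CPM at P21, 376 and 423 CPM in adult sections and 813 and 575 CPM in aged sections. In FT it was at 207 and 213 CPM, 195 and 194 CPM, and 251 and 237 CPM at the same ages. TH was highest and FT lowest in each of the 6 sections.

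Atp5g1, which encodes the ring subunit c of ATP synthase, spread 2.11-fold, again between TH and FT, and was at 27.8 to 86.0 CPM in VS. Atp5b, the catalytic beta subunit, was not among the 5 widest but had a Moran's I of 0.135 to 0.476. At the other end, Ndufa2, a small complex I subunit, spread only 1.13-fold, Cox7a2l, counted under complex IV, 1.15-fold, and Sdhb, the iron–sulfur subunit of complex II, 1.17-fold.

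The tissue-restricted isoforms had zonal patterns of their own. Cox6a2 is the form of a complex IV subunit best known from heart and skeletal muscle. In TH it was at 193 and 229 CPM at P21, 114 and 127 CPM in adult sections and 203 and 172 CPM in aged sections. In HY it was at 34.8 and 39.5 CPM, 20.9 and 17.6 CPM, and 12.3 and 18.4 CPM. TH was the highest of the 6 main regions in each section, with a mean 7.23-fold above HY.

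Relative to Cox6a1, its widely expressed partner, the Cox6a2 count in TH was 31.1% and 37.3% at P21, 19.4% and 20.1% in adult sections and 25.0% and 21.3% in aged sections. In HP the same percentage was 7.02% and 6.47%, 4.54% and 4.46%, and 3.47% and 2.64%. The percentage rests on both probe sets and, in aged sections, on another platform. It was highest at P21 in both zones, and the adult and aged values lay in opposite order in TH and HP. The Moran's I of Cox6a2, 0.250 to 0.476, was the highest of the respiratory genes in all sections but aged section 2, where Atp5b was higher.

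Cox8b, the form of complex IV subunit 8 known from muscle and brown fat, was highest in VS, whose spots were led by Ttr and other choroid plexus genes. There it was at 19.3 and 37.1 CPM at P21, 85.7 and 98.6 CPM in adult sections and 279 and 178 CPM in aged sections, from 26, 20, 94, 39, 389 and 257 UMIs. In the 6 main regions it ranged from 0 to 5.38 CPM and in RT from 5.13 to 8.88 CPM. The 3 ages did not overlap in VS, and the order was P21, adult, aged.

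The summed level of choroid plexus markers in VS moved in the same order. The 5 choroid plexus markers, all detected, summed in VS to 81013 and 97861 CPM at P21, 109853 and 117309 CPM in adult sections and 143223 and 127699 CPM in aged sections. Set against those markers, Cox8b counted 0.239 and 0.379 UMIs per 1000 marker UMIs at P21, 0.780 and 0.840 in adult sections and 1.95 and 1.39 in aged sections. As a percentage of Cox8a, the widely expressed form, it was 3.03% and 6.56%, 12.5% and 12.7%, and 36.2% and 30.7%. Both ratios are between different probes, and for aged sections age and platform cannot be told apart in them. These ranges did not overlap between ages either, and no test was made on VS because 1 adult section held only 13 such spots.

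Of all Cox8b UMIs in a section, 19.0% and 33.9% fell in VS at P21, 56.6% and 33.9% in adult sections and 75.0% and 61.6% in aged sections, against 0.803% to 2.17% of the UMIs of all genes. Cox7a1, a muscle form of subunit 7a, and Cox6b2, known from testis, were also highest in VS. Cox7a1 was there at 20.1 and 24.1 CPM at P21, 47.4 and 58.1 CPM in adult sections and 57.4 and 38.8 CPM in aged sections, while CTX held 5.93 to 9.58 CPM. Cox6b2 was in VS at 11.9 and 18.6 CPM, 29.2 and 25.3 CPM, and 44.5 and 28.4 CPM. P21 was lowest for both genes, and adult and aged values overlapped.

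Ndufa4l2, a relative of the complex IV subunit Ndufa4 that is induced in low oxygen, was highest in MEN. It was there at 17.3 and 22.1 CPM at P21, 20.7 and 20.1 CPM in adult sections and 8.56 and 14.7 CPM in aged sections. The 8 pericyte and smooth muscle markers, whose cells line the vessels of these spots, summed in MEN to 773 and 600 CPM, 872 and 1150 CPM, and 464 and 842 CPM. Aged sections were lowest for Ndufa4l2. The marker sums of both aged sections were also below both adult sums, while they overlapped with those at P21, and the part of these cells was not tested. Cox4i2, a low-oxygen form of subunit 4, was highest in MEN and TH at 5.27 to 10.3 CPM and 6.00 to 9.99 CPM, and Cox7b2, known from testis, in TH at 6.35 to 8.87 CPM. Cox8c had 68 UMIs in all sections together and is not described further.

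**Figure D3:**
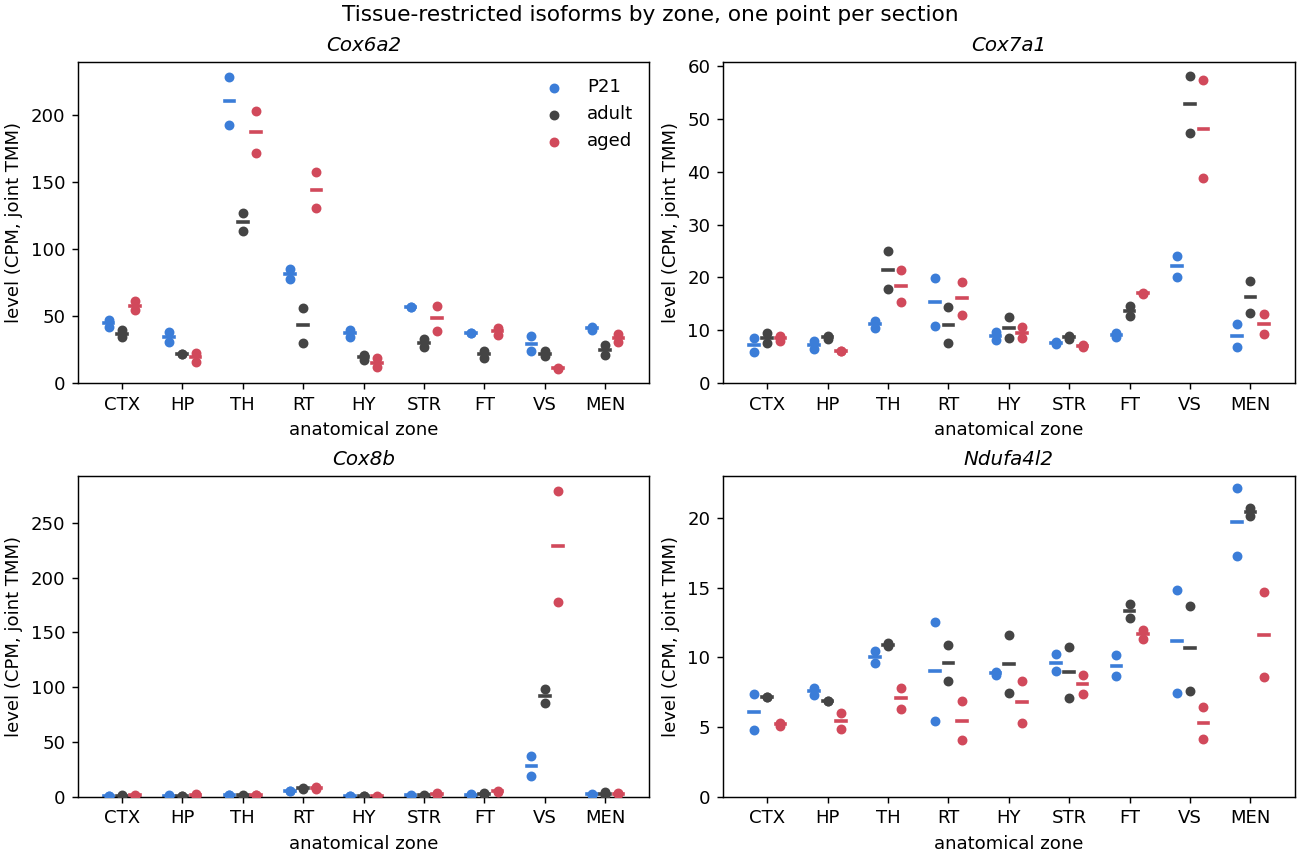
Level in CPM (joint TMM scaling) of 4 tissue-restricted isoforms by zone, with 1 point per section and a bar at the mean of the 2 sections of an age. Cox6a2 peaks in TH, Cox7a1 and Cox8b in VS (Cox8b at 279 and 178 CPM in aged VS) and Ndufa4l2 in MEN.

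The first comparison asked how the juvenile brain differs from the adult brain. In P21 vs. adult whole sections few respiratory genes changed: 5 rose and 6 fell of 75 tested (edgeR's quasi-likelihood test, Benjamini-Hochberg adjusted p under 0.05 over all genes tested). Over all 11153 genes 28% were called, 14.4% higher and 13.5% lower, and 11 of 75 lies below that share. Their median log2 fold change was −0.04, and that of all genes 0.00. The summed level was 17799 and 17296 CPM at P21 and 17397 and 17760 CPM in adult sections, which overlapped. At an unadjusted p under 0.05 there were 20 genes, and how many of all genes reached it was not counted. The 2 ages did not overlap in CPM for 51 of the 75, against 73% of all genes.

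Cox6a2 was the only one of the 75 genes past a 1.5-fold change, against 5.19% of all genes. It was at 74.8 and 83.8 CPM at P21 and 44.0 and 46.0 CPM in adult sections. P21 was above adult in both sections, by 0.82 ± 0.09 (log2, SE; edgeR, Benjamini-Hochberg adjusted p = 0.000259). Cox7a1 went the other way, from 9.66 and 8.66 CPM at P21 to 12.6 and 12.7 CPM in adult sections, and was lower at P21 by −0.46 ± 0.10 on the log2 scale (adjusted p = 0.00838).

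Complex I contributed 1 gene that rose and 3 that fell. Ndufv3, a subunit next to the NADH-binding site, was at 251 and 262 CPM at P21 and 211 and 216 CPM in adult sections, and rose by 0.26 on the log2 scale. Ndufaf2, an assembly factor of the late stage, was at 61.7 and 61.6 CPM against 77.2 and 75.2 CPM and fell by 0.31. Ndufa12 and Ndufb8, supernumerary subunits of the matrix arm and the membrane arm, both fell by 0.28. None of the 7 core subunits and none of the 4 genes of complex II passed the test.

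In complex III, Uqcr11 rose from 164 and 159 CPM in adult sections to 202 and 185 CPM at P21, a log2 difference of 0.26, and the Rieske iron–sulfur protein Uqcrfs1 rose by 0.20. Uqcrh, the hinge protein that helps cytochrome c dock, was at 245 and 228 CPM at P21 and 270 and 286 CPM in adult sections and fell by 0.23. Cox7c of complex IV rose by 0.32 and Atp5o, which ties the stalk of ATP synthase to its head, fell by 0.28. Of the 11 genes only Cox6a2 kept its call whichever P21 or adult section was left out. Cox7a1 lost it without P21 section 2, Ndufb8 and Atp5o without P21 section 2 or either adult section, and the other 7 without any 1 of the P21 and adult sections. The count of 11 ranged from 1 without P21 section 2 to 17 when either aged section was left out. 

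Markers of other cells also moved at P21. Of 10 oligodendrocyte markers 8 rose and 1 (Aspa) fell, and the list summed to 26111 and 27234 CPM at P21 and 12963 and 12657 CPM in adult sections. Of 4 erythrocyte markers the 3 tested rose, and the list summed to 2290 and 1295 CPM against 317 and 166 CPM. Of 6 endothelial markers 3 rose and 0 fell (418 and 444 CPM against 362 and 339 CPM in sum). No marker of these lists was at 0 in a section, and their part in the differences above was not tested. The mix of regions differed as well, with HY at 19.0% and 17.7% of spots at P21 and 12.6% and 13.1% in adult sections. HP was at 9.12% and 8.96% against 12.0% and 13.0%. The part of that mix was not tested.

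Within the 6 main regions, 38 of 450 pairs of gene and region passed in P21 vs. adult, 16 higher and 22 lower, against 15.2% of pairs over all genes, 8.35% higher and 6.84% lower. They belonged to 19 genes. Cox6a2 rose in 5 regions, by 0.73 to 0.95 on the log2 scale, and in CTX its change of 0.28 did not pass (adjusted p = 0.080). Uqcr11 rose in 4 regions, and Ndufb8 and Atp5o fell in 3 each.

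Cox7a1 fell in FT and TH at P21. In TH it was at 10.4 and 11.8 CPM at P21 and 17.8 and 25.0 CPM in adult sections, a difference of −0.95 on the log2 scale. No respiratory gene rose in 1 region and fell in another, and how many of all genes did so was not counted. The 38 calls fell to 3 without adult section 2.

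The second comparison asked how the aged brain differs from the adult brain. In aged vs. adult whole sections 41 of 75 respiratory genes passed, 30 higher and 11 lower, against 48.5% of all 11315 genes, so the share of genes called was close to the background. Of all genes 24.9% rose and 23.5% fell. The median log2 fold change was 0.08 for the respiratory genes and 0.00 for all genes. The summed level was 19051 and 18471 CPM in aged sections, above both adult sections, and 56 of the 75 genes did not overlap between the ages, against 74% of all genes. Past a 1.5-fold change, 6 genes rose and 1 fell, against 8.88% of all genes, and without aged section 1 only 1 rose that far.

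The split of calls depended on the genes kept. When genes seen in few spots were kept too, the scaling moved the median gene by −0.11 on the log2 scale and the counts became 25 higher and 21 lower of 80. The shares of all genes in that fit are not given here, so this split cannot be set against them. Marker lists of other cells moved as well. All 10 oligodendrocyte markers fell in aged whole sections, and their sum was 8510 and 8082 CPM in aged and 12963 and 12657 CPM in adult sections. Within FT their sum was higher, at 51566 and 50042 CPM in aged and 44522 and 42935 CPM in adult sections. Of 10 neuron markers 4 rose and 3 fell in whole sections (8970 and 8716 CPM against 9662 and 9697 CPM in sum). Of 8 pericyte and smooth muscle markers 4 of the 7 tested fell (118 and 123 CPM against 173 and 163 CPM in sum), and of 8 microglia markers 5 rose and 1 fell (694 and 634 CPM against 519 and 537 CPM). No marker was at 0 in a section, and the part of these cells in the differences was not tested. The mix of regions differed too. HP held 7.69% and 6.72% of aged spots against 12.0% and 13.0% of adult spots, and HY 16.4% and 23.2% against 12.6% and 13.1%. The part of that mix in the whole-section differences was not tested.

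In whole sections the genes counted under complexes III and IV that passed all rose. The tissue-restricted isoforms were counted apart. Of them Cox6a2 rose and Ndufa4l2, the relative of a complex IV subunit, fell. Of all genes 24.9% rose and 23.5% fell, and Cyc1, a complex III subunit outside the name rule, fell. In complex IV, which hands electrons to oxygen, 5 of 8 genes rose and 0 fell, and the summed level was 3270 and 3170 CPM in aged sections against 2673 and 2682 CPM in adult sections. Cox7b rose from 135 and 134 CPM to 179 and 195 CPM, by 0.47 ± 0.07 on the log2 scale (edgeR, Benjamini-Hochberg adjusted p = 0.000763). Cox6a1 rose from 519 and 512 CPM to 641 and 654 CPM, by 0.33. Cox7c, Cox6c and Cox7a2 rose by 0.53, 0.43 and 0.34. Cox8a was at 740 and 626 CPM in aged and 621 and 597 CPM in adult sections and Cox7a2l at 235 and 271 CPM against 214 and 227 CPM, and neither passed.

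In complex III 3 of 7 genes rose and 0 fell, and the summed level was 2009 and 1865 CPM against 1631 and 1684 CPM. Uqcrc2, a core protein of the complex, was at 312 and 276 CPM in aged and 186 and 194 CPM in adult sections, with aged sections far above the adult and P21 values, and rose by 0.63 ± 0.07 (adjusted p = 0.000179). Uqcrh rose from 270 and 286 CPM to 375 and 357 CPM, by 0.40, and Uqcrb by 0.32. The counts of 0 lower genes in whole sections leave out the tissue-restricted isoforms. They held for complexes III and IV under plain CPM, DESeq2, the wider gene set, thinning and the replicate block. In the wider gene set the complex IV isoforms Cox4i2 and Cox7b2 fell, at −0.80 and −0.71 on the log2 scale. Cox8b and Cox8c rose there, and Cox6b2 did not pass.

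Complex I went both ways. Ndufa11, a subunit of the membrane arm, was at 107 and 82.3 CPM in aged sections and 50.3 and 45.5 CPM in adult sections and rose by 0.98 ± 0.12 (adjusted p = 0.000268), with P21 at 54.5 and 50.1 CPM beside the adult values. Ndufs5 rose from 65.4 and 61.6 CPM to 116 and 90.0 CPM, by 0.70 ± 0.12, and Ndufa10 from 260 and 276 CPM to 460 and 366 CPM, by 0.62 ± 0.11. For all 3 genes aged section 1 was the higher of the aged sections. The low counts of Ndufb2 (12.5 and 8.57 CPM in aged against 7.18 and 6.76 CPM in adult sections) and Ndufb3 (14.6 and 12.3 CPM against 9.09 and 8.98 CPM) rose by 0.59 and 0.57, and the call of Ndufb2 was lost without aged section 1 or adult section 2. The promoter of Ndufa11 carries an NRF1 match in the upstream bases printed above and that of Ndufs5 none of the 4 motifs.

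Among the genes that fell, Ndufb10 and Ndufb5 belong to the membrane arm of complex I. Ndufb10 was at 415 and 449 CPM in aged and 576 and 613 CPM in adult sections and fell by 0.46 ± 0.07 (edgeR, Benjamini-Hochberg adjusted p = 0.000618), and Ndufb5 was at 309 and 308 CPM against 397 and 422 CPM and fell by 0.41. Ndufa13 fell by 0.23, a call lost without aged section 1 or either adult section. The core iron–sulfur subunits Ndufs7 and Ndufs8 fell by 0.31 and 0.30, while the core subunits Ndufs3 and Ndufv1 rose by 0.28 and 0.27. In all, 2 core subunits rose and 2 fell of 7, and 9 supernumerary subunits rose and 4 fell of 27. The shares over all genes were 24.9% higher and 23.5% lower.

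Of 6 assembly factors of complex I, 3 fell and 1 rose, where 23.5% of all genes fell and 24.9% rose. Ndufaf8, which holds the factor that modifies a core subunit, was at 35.8 and 34.8 CPM in aged and 54.3 and 56.2 CPM in adult sections and fell by 0.65 ± 0.06 (adjusted p = 0.00012). Ndufaf2 was at 58.4 and 52.0 CPM against 77.2 and 75.2 CPM and fell by 0.46, and Ndufaf7, a methyltransferase, fell by 0.27. Ndufaf1, of the complex that builds the membrane arm, rose by 0.42. Ndufaf8 was the only gene of the 75 that fell past 1.5-fold.

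In complex II the small membrane subunit Sdhd rose from 86.4 and 85.3 CPM to 118 and 109 CPM, by 0.41, and Sdhc by 0.17. Sdha, the flavoprotein that oxidizes succinate, was at 352 and 350 CPM in aged and 344 and 356 CPM in adult sections, a log2 difference of 0.00 that did not pass, and Sdhb was at 336 and 371 CPM against 355 and 370 CPM. At P21 Sdha was at 318 and 321 CPM and Sdhb at 378 and 366 CPM. The call of Sdhc was lost when any section but aged section 2 was left out.

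In ATP synthase 7 of 13 genes rose and 1 fell, where 24.9% of all genes rose and 23.5% fell. Atp5f1, of the outer stalk, rose from 60.8 and 59.2 CPM to 93.0 and 89.9 CPM, by 0.61 ± 0.10 (adjusted p = 0.00101), and Atp5d, of the central stalk, from 482 and 469 CPM to 748 and 609 CPM, by 0.51. Atp5e, a small subunit of the same central stalk, fell from 559 and 556 CPM to 434 and 419 CPM, by 0.39. Aged and adult values did not overlap for any of the 3, which was also so for 74% of all genes. Atp5g1 and Atp5g3 encode the same subunit c, as does Atp5g2, which was absent, and they did not pass in either comparison. Atp5g1 was at 37.9 and 32.2 CPM at P21, 28.3 and 28.3 CPM in adult sections and 36.9 and 30.3 CPM in aged sections, and Atp5g3 at 780 and 730 CPM, 682 and 686 CPM, and 675 and 648 CPM.

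Among the isoforms, Cox6a2 was at 67.7 and 59.7 CPM in aged sections, between adult and P21, and rose by 0.50 ± 0.09 over adult (adjusted p = 0.00146). Ndufa4l2 was at 6.37 and 6.43 CPM in aged and 9.89 and 9.05 CPM in adult sections and fell by 0.57. Cox7a1 was at 11.4 and 10.6 CPM and did not pass. Of the isoforms below the detection limit of the test, Cox4i2 was at 3.65 and 3.48 CPM in aged, 5.48 and 6.02 CPM in adult and 5.05 and 4.40 CPM in P21 sections, and Cox8b at 6.39 and 3.83 CPM, 3.14 and 2.24 CPM, and 1.54 and 1.40 CPM. VS, where Cox8b was highest, held 1.90% and 1.71% of aged spots, 1.10% and 0.399% of adult spots and 0.889% and 0.785% of P21 spots. The part of that share in the Cox8b levels was not tested.

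**Figure D4:**
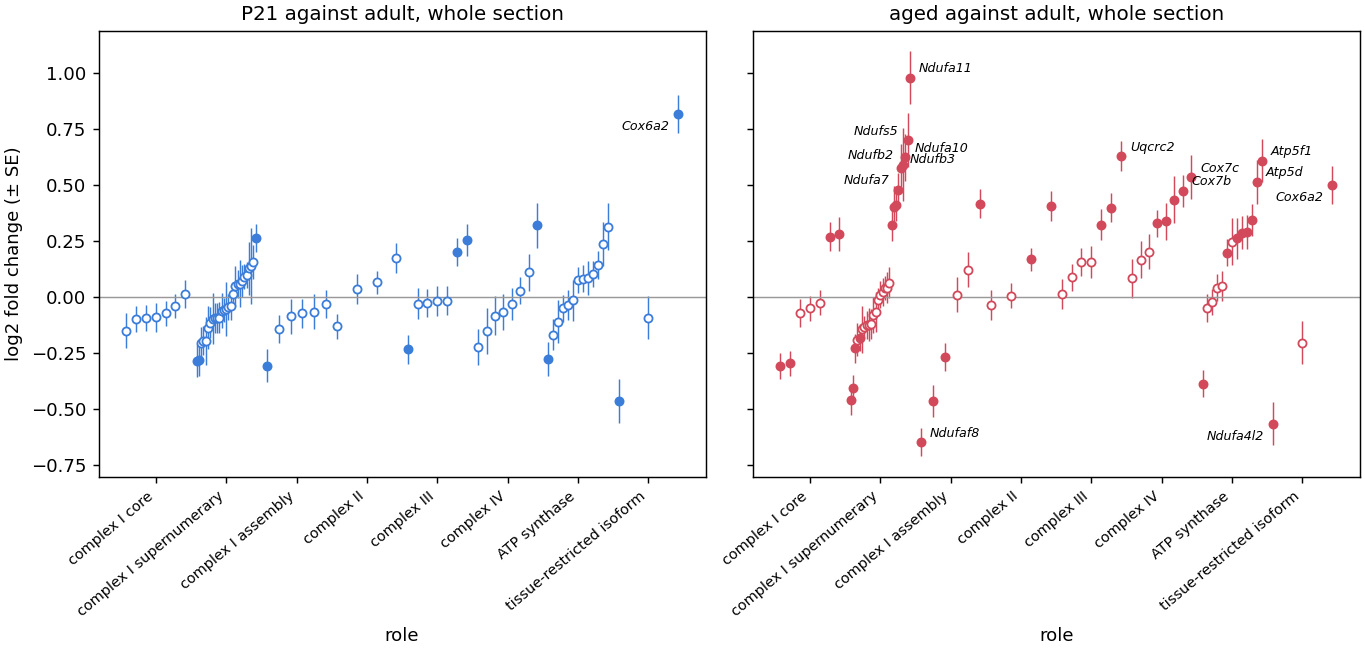
Log2 fold change with its SE of the 75 tested genes by role, for P21 against adult (left) and aged against adult (right) in whole sections. Filled points have an adjusted p under 0.05, and named points passed and exceed 0.47. In the right panel no filled point of complexes III and IV, without the tissue-restricted isoforms, lies below 0.

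Within the 6 main regions, 198 of 450 pairs of gene and region passed in aged vs. adult, 145 higher and 53 lower, against 37.3% of pairs over all genes, 19.5% higher and 17.8% lower. They belonged to 53 genes, and no gene rose in 1 region and fell in another. The genes that rose in all 6 regions were Ndufa11, Ndufs5, Uqcrc2, Atp5f1, Ndufa10, Atp5d, Ndufa7, Cox6c, Ndufa2, Sdhd, Ndufaf1, Uqcrh and Atp5l, 13 in all. The 3 genes that fell in all 6 were Ndufaf8, Ndufb10 and Ndufb5. How many of all genes passed in all 6 regions, or in opposite directions, was not counted. Each region was fitted apart, so the mix of regions in a section does not enter these values, but the mix inside a region can. Matrix spots were 234 of 350 and 280 of 423 HP spots in adult sections. In aged sections they were 127 of 283 and 110 of 240. The HY cluster led by Hcrt and Pmch held 219 of 369 and 221 of 428 HY spots in adult sections. It held 423 of 603 and 689 of 828 in aged sections. The part of these mixes was not tested.

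By region, 30 genes rose and 9 fell in CTX, where 22.3% of all genes rose and 20.1% fell. In HP 21 rose and 5 fell (15.9% and 14% of all genes), in TH 28 and 8 (18.1% and 18.7%) and in HY 16 and 7 (15.2% and 13.2%). In STR 21 rose and 9 fell (16.4% and 14.9% of all genes), and in FT 29 and 15 (28.9% and 25.9%).

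Of the 7 complex III genes of the name rule, 3 were higher and 0 lower in each of the 6 regions. Complex IV had 0 lower in each, with 7 higher of 8 in CTX and FT, 5 in HP and TH, 3 in STR and 1 in HY. The tissue-restricted isoforms were counted apart, and in TH 1 of them rose and 1 fell. In FT the counts of all respiratory genes depended on scaling. With plain CPM, which moved the median gene by −0.09 on the log2 scale, 19 rose and 23 fell there, and 1 complex III gene fell. The shares of all genes in FT with plain CPM are not given here.

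**Figure D5:**
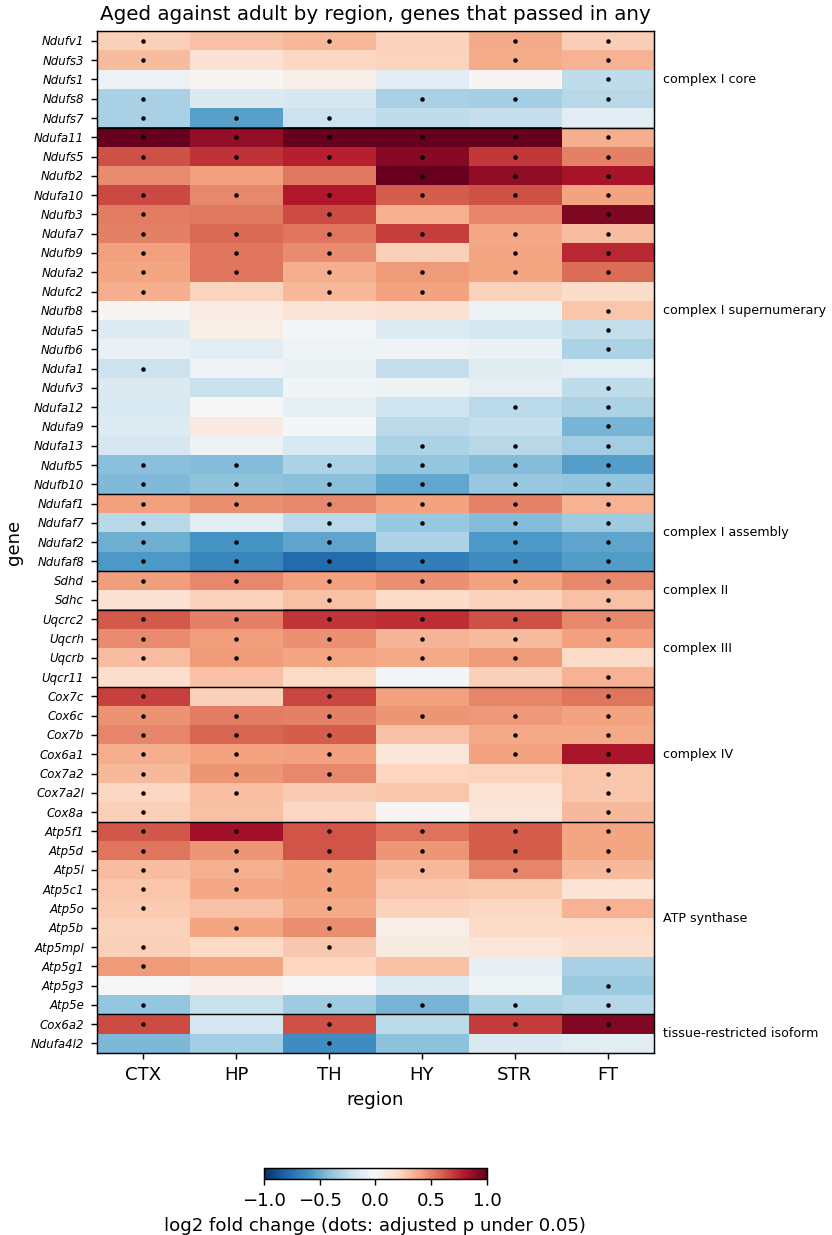
Log2 fold change of aged against adult for the 53 genes that passed in at least 1 region (grouped by role) in 6 regions (columns), with red for higher in aged sections and a dot where the adjusted p was under 0.05. Ndufa11, Ndufs5 and Ndufa10 are higher and Ndufaf8, Ndufb10 and Ndufb5 lower in every column.

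Whether the difference between ages varied among regions was tested by a region-by-age term with each section as a block. The block takes out any factor that acts alike on a whole section. A platform effect that differs between regions stays in the term, so in aged vs. adult it cannot be told apart from age. In aged vs. adult 16 of 75 respiratory genes passed, against 48.6% of all genes, and in P21 vs. adult 1 gene passed, Ndufb9 (adjusted p = 0.0478), against 12.7% of all genes. The next smallest p at P21 were those of Ndufb4 (adjusted p = 0.0692) and Ndufaf2 (adjusted p = 0.0722). In aged vs. adult FT was the highest or the lowest of the 6 regions for 15 of the 16. For how many of all passing genes FT was at an end was not counted. The share of all genes that passed was 48.6% with FT and 24.7% without it. Aged FT spots were shallow, with medians of 10941 and 12692 UMIs against 30225.5 and 40832 UMIs in aged CTX. In adult sections the medians were 17703 and 15035 UMIs in FT and 17860 and 14838 UMIs in CTX. The part of depth was not tested.

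Cox6a1 had the smallest p of the term (adjusted p = 0.000884). In FT it was at 880 and 928 CPM in aged and 563 and 522 CPM in adult sections, a rise of 0.82 on the log2 scale, and in HY at 396 and 478 CPM against 428 and 390 CPM, a difference of 0.12 that did not pass. Ndufa11 rose by 1.10 in TH and by only 0.37 in FT, and Ndufa9, a subunit of the matrix arm, was lower by −0.47 in FT and at 0.09 in HP. FT stood apart from the other regions for all 3.

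Without FT, an alternative chosen after the data were seen, 4 genes passed in aged vs. adult, against 24.7% of all genes: Ndufs7, Cox6a2, Atp5b and Sdhb. In P21 vs. adult 0 passed by edgeR, against 7.06% of all genes. At an unadjusted p under 0.05 there were 6, and how many of all genes reached it was not counted. Cox6a2 rose in CTX, STR, TH and FT by 0.64 to 0.93 and was at −0.17 in HP and −0.27 in HY, where it did not pass. In HY it was at 12.3 and 18.4 CPM in aged and 20.9 and 17.6 CPM in adult sections. Atp5b rose by 0.46 in TH and 0.40 in HP. In TH Atp5b was at 1125 and 1392 CPM in aged and 870 and 959 CPM in adult sections, and in HY at 617 and 851 CPM against 752 and 680 CPM, which overlapped.

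Genes of the same pathways outside the name rule were counted in the same fits, 91 tested of 93. In P21 vs. adult 4 rose and 13 fell, and in aged vs. adult 27 rose and 22 fell, where 28% and 48.5% of all genes passed in either direction. Of the factors that assemble complexes III and IV, 12 of 23 fell in aged sections and 2 rose, with Cox15, a maker of heme A, at −0.64, Uqcc3 at −0.63 and Uqcc1 at 0.40. At P21 5 of them fell, among them the copper chaperone Cox17 at −0.46. Of assembly factors for the other complexes, Ecsit rose by 0.61 and Sdhaf1 fell by 0.60 in aged sections.

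The steps that feed the chain were counted in the same way. Over all genes 24.9% rose and 23.5% fell in aged vs. adult, and 14.4% rose and 13.5% fell in P21 vs. adult. Of 13 genes of the tricarboxylic acid cycle 6 rose and 1 fell in aged vs. adult, with Mdh2, which makes oxaloacetate, at 0.74, and 0 of 13 passed in P21 vs. adult. Of 10 genes of pyruvate dehydrogenase and pyruvate import, 5 rose and 1 fell, led by Pdk4, the kinase that switches the enzyme off, at 1.49 and Pdhb, a subunit of the enzyme, at 1.08. At P21 Pdk4 fell by 0.59. Of 11 glycolytic genes 4 rose and 1 fell in aged sections, with Pgk1 at 0.69 and Hk1 at −0.39, and at P21 0 rose and 3 fell.

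Of 9 genes of mitochondrial membranes and carriers 6 rose and 1 fell in aged vs. adult, against 24.9% and 23.5% of all genes. Phb2 and Phb, which form one ring-shaped complex, changed in opposite directions, by 0.55 and −0.41. Cycs, which encodes cytochrome c, rose by 0.32, while Cyc1, the cytochrome subunit of complex III that the name rule leaves out, fell by 0.28. Of 10 regulators of mitochondrial biogenesis, Ppargc1a and Polg fell by 0.27 each and Twnk, the helicase of mitochondrial DNA, rose by 0.30 in aged sections, and Tfb2m fell by 0.46 at P21.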

How the data were processed

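Whole coronal sections, 6 in all, 2 per age, were read as UMIs per gene and spot. Deposited counts came from Space Ranger, run by the authors on a mouse probe panel and mm10. Per the file headers, aged sections used release 3.1.1 and all others 2.0.0, whereas the submitters' processing notes name 2.1.0 and Seurat 5.1.0. The deposited counts are not normalized. The deposited spatial enrichment tables hold Moran's I per gene and section, a score used as given by the authors. Totals, 42422997 to 106783660 UMIs per section, set the precision of low genes, and no intervals are given because the spread between sections is.

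Spots with at least 500 UMIs and 250 genes were kept, 20336 of 20348. Spots were clustered on 3000 variable genes without the members and the listed genes (10 principal components, 20 neighbours, Leiden resolution 0.5, or 0.1 inside HP; the resolution was chosen after the clusters were seen), and a cluster took the name of a marker panel that reached a mean standardized value of 0.2 and led by 0.2. Spots of 1 cluster, 1.05% of all, stayed unnamed. An alternative assignment by marker score gave 79.2% of spots the same region.

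UMIs were summed per section and region, since spots of a section are not replicates; the study's Wilcoxon test over spots was therefore not used. edgeR 4.0.16 (TMM, glmQLFit, glmQLFTest, R 4.3.3) fitted all 6 sections with age as the term, over genes kept by filterByExpr and detected in over 10% of the spots at either age compared and in 10% of all spots. Adjusted p are Benjamini-Hochberg values over all genes tested, with a threshold of 0.05. The region-by-age fit held each section as a block. Zone levels share 1 set of TMM factors over all zones and sections. The fits were tested on simulated data. Sections of 1 age are labelled biological replicates. No barcode was shared between aged and other sections, and other pairs shared 2607 to 3363, as slides of a version carry the same barcodes. Alternatives were plain CPM, DESeq2 1.42.0, filterByExpr alone, UMIs thinned to the lowest total of the sections compared (spots and UMIs per spot still differed), the replicate number as a block, regions by marker score, and each section left out.

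Members and lists were chosen with earlier results of these data known. Named genes are up to 10 that rose and 10 that fell most per comparison, the 5 that passed in most regions, the 3 with the smallest region-by-age p, the Sdh genes, the isoform pairs, and the 5 widest and 3 narrowest regional spreads. Promoters are RefSeq windows on GRCm38.p6. Tissue images were not used here.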

Additional observations from a re-analysis of the deposited data

Results flagged for a closer look

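The difference between ages varied among the 6 main regions for 16 respiratory genes in aged vs. adult and for 1 in P21 vs. adult. The test was the region-by-age term of edgeR with Benjamini-Hochberg adjustment. In aged vs. adult, age and a platform effect that differs between regions cannot be told apart in this term. Over all genes the same term passed for 48.6% and 12.7%.

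In P21 vs. adult Ndufb9 passed with an adjusted p of 0.0478, with log2 differences from 0.13 in STR to −0.29 in FT. In aged vs. adult Ndufb9 passed as well (adjusted p = 0.00138), from 0.76 in FT to 0.24 in HY.

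Genes that were highest in FT in aged vs. adult were Cox6a1 (adjusted p = 0.000884), from 0.82 in FT to 0.12 in HY, Ndufs7 (0.00178), from −0.12 in FT to −0.54 in HP, and Cox6a2 (0.00497), from 0.93 in FT to −0.27 in HY. The adjusted p of the term stands in parentheses after each gene here and in the next paragraph.

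Genes that were lowest in FT were Ndufa11 (0.000891), Ndufa9 (0.00135), Atp5g3 (0.00269), Sdhb (0.00333), Ndufs4 (0.00411), Atp5g1 (0.00422), Ndufa5 (0.00501), Ndufa13 (0.0101), Ndufs1 (0.0350), Uqcrfs1 (0.0425) and Ndufa7 (0.0463). Among them Ndufa11 ranged from 1.10 in TH to 0.37 in FT, Atp5g1 from 0.42 in CTX to −0.32 in FT and Ndufa9 from 0.09 in HP to −0.47 in FT. Atp5b (0.00882) was the 1 gene for which FT was at neither end, from 0.46 in TH to 0.06 in HY. Without FT, chosen after the data were seen, Ndufs7, Cox6a2, Atp5b and Sdhb passed, against 24.7% of all genes. Aged FT differed from the other aged regions in depth and in its leading cluster. Cell markers in FT differed as well, with neuron markers summing to 3038 and 2990 CPM in aged and 6447 and 6126 CPM in adult FT. Microglia markers summed there to 2634 and 2736 CPM against 800 and 924 CPM, and astrocyte markers to 7174 and 6995 CPM against 4066 and 4145 CPM. The part of depth, cluster and cell content was not tested.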

How the results depend on the processing

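In aged vs. adult whole sections the count of 41 stayed within 1.5 times under every alternative, from 31 without adult section 1 to 46 with filterByExpr alone (25 higher, 21 lower). In the 6 regions 198 pairs passed, 124 to 210 with a section left out. In P21 vs. adult the whole-section count of 11 ranged from 1 to 17 and the regional count of 38 from 3 to 69 with a section left out, and marker-score regions gave 25. The region-by-age count in P21 vs. adult was 1, and became 2 with plain CPM, 0 with filterByExpr alone, 0 without FT and 0 to 9 with a section left out. In aged vs. adult it was 16, and became 25 with plain CPM, 30 with filterByExpr alone, 4 without FT (an alternative chosen after the data were seen), 6 without adult section 1 and 39 without aged section 2.

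The summed level over CTX (log2) with plain CPM was −0.076 in MEN, 0.00216 in CA3 and −0.15 in DG, and it turned sign in HY, to 0.071, in STR, to 0.00445, and in CA1-2, to −0.050. With marker-score regions it was −0.10 in FT, 0.13 in RT and −0.14 in MEN. Causes were not tested.

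Sections with the same replicate number did not deviate together (r = 0.139, −0.135 and −0.444 for the pairs of ages), so the numbers pair nothing. With the replicate number as a block 4 genes rose and 6 fell in P21 vs. adult and 31 rose and 11 fell in aged vs. adult. Of 275 pairs of a named gene's change and an alternative setting 263 kept their call, passing or not, as did 275 of 330 pairs with a section left out. Among pairs that passed in either fit, 0 changed sign. A change of sign where neither fit passed was not counted. With 2 sections an age, and aged sections on another platform, small changes at P21 rest on few animals. Genes of few UMIs such as Cox8c cannot be followed at this depth.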
